A study of Mus musculus with 14 samples.

Results

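The Polycomb complex genes examined here were Ezh1, Ezh2, Eed and Suz12 of Polycomb repressive complex 2 (PRC2) and Bmi1, Cbx2, Cbx7, Ring1 and Rnf2 of Polycomb repressive complex 1 (PRC1). They were chosen by name, as every probe set (the group of short probes that reads 1 transcript) annotated to one of these symbols and to no other. This gave 23 of 22626 probe sets, for 9 of the 12393 genes with a single symbol. PRC2 holds 4 of these genes and 11 probe sets, and PRC1 holds 5 genes and 12 probe sets. RNA was measured on Affymetrix MOE430A arrays in 7 groups of 2 arrays, named A and B: hematopoietic stem cells (HSC) of 12-mo-old p53+/m mice, HSC of 12-mo-old p53+/- mice, HSC of wild-type (WT) mice at 4 ages (2, 6, 12 or 21 mo), and whole bone marrow (WBM) of WT mice of 2 mo. All mice were C57Bl/6 males or, for both p53 alleles, carried on that background. The p53 mice had been back-crossed for 4 or more generations, so remaining differences of strain cannot be told apart from genotype. The p53+/m mouse carries a truncated p53 allele with more p53 activity than WT, and the p53+/- mouse carries 1 null allele. HSC were side population cells, which pump out the dye Hoechst, and were also c-Kit+, Sca-1+ and lineage-. Each HSC array held RNA of 2 to 5 pooled mice amplified in 2 rounds, so that p-values measure the spread between pools. Pooling of WBM is not stated in the sources used here. One label field gives 2 mo for every sample, and the ages used here are those of the sample titles.

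Polycomb complexes keep genes silent through the modification of histones. In PRC2, Ezh1 or Ezh2 methylates histone H3 at the mark H3K27me3, and Eed and Suz12 hold the enzyme in an active complex. In PRC1, Ring1 or Rnf2 attaches ubiquitin to histone H2A, Bmi1 supports that activity, and Cbx proteins such as Cbx2 and Cbx7 bind the PRC2 mark. In mouse blood, Bmi1 is required for the self-renewal of HSC and holds the cell cycle inhibitors of the Cdkn2a locus silent, and the Hox genes are classical targets of both complexes.

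The 250 bases before the annotated start of Ezh2, Suz12 and Bmi1 are shown. These are the 3 genes that passed the test of HSC against WBM given below, each on its brightest probe set. They are RefSeq sequences on build GRCm38.p6, written 5′ to 3′ on the strand of the gene, with capitals at CCAAT boxes (CCAAT, or ATTGG on the other strand) and at E2F spellings (TTTCCCGC, TTTCGCGC, TTTGCCGC or TTTGGCGC, on either strand).
Ezh2, chr6:47595031-47595280, minus strand: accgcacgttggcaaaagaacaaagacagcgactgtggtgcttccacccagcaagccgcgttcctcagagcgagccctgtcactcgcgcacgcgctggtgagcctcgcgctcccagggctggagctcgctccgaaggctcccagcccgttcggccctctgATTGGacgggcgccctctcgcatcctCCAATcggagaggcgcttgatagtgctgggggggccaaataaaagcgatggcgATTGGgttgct
Suz12, chr11:79992856-79993105, plus strand: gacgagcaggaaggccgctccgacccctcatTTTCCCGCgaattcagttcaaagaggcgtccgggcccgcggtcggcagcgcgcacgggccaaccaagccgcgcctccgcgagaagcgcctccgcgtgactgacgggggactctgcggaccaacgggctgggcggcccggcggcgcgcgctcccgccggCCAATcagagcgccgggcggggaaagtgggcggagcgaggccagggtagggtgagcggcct
Bmi1, chr2:18676768-18677017, plus strand: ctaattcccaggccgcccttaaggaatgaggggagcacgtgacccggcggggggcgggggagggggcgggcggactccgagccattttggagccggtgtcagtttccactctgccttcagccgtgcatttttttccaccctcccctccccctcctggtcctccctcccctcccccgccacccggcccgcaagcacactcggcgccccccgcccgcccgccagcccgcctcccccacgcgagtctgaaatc

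The Ezh2 window held 3 CCAAT boxes, and the Suz12 window held 1 CCAAT box and 1 E2F spelling (TTTCCCGC, from 219 to 212 bases before the start). Neither motif matched in the Bmi1 window, which instead held 6 matches to the GC box (GGGCGG on either strand, with 2 pairs that overlap), against 3 in Suz12 and 0 in Ezh2. Of 32851 promoter windows of this length, 33.8% held a CCAAT box, 1.86% an E2F spelling and 32.7% a GC box. A match is a string of letters and was not tested as a binding site. Promoters were found for 8 of the 9 genes, all but Cbx2.

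A log2 value of 5 was taken as the lower limit of a readable signal, since the arrays came without detection calls. On the arrays 42.7% to 43.6% of probe sets reached it, and array medians lay between 3.93 and 4.10. Of the 23 Polycomb probe sets, 12 reached it on 2 or more arrays and 11 on no array. The readable ones belonged to 6 genes (Ezh1, Ezh2, Eed, Suz12, Bmi1 and Rnf2). Cbx2 (1.73 to 2.44 over 2 probe sets), Cbx7 (2.26 to 4.20 over 2) and Ring1 (2.29 to 2.80 on 1) stayed below it on all 14 arrays, so no level could be read for them in any group. Where 1 of 2 groups lay below the limit, the size of their difference is not exact.

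The sorted HSC carried the markers of their label, and 4 of 7 HSC markers were higher in HSC of 2 mo than in WBM, with none lower. Among all genes 13.3% were higher and 10.5% lower. Procr, an HSC surface receptor, was at 12.78 and 13.00 in HSC of 2 mo and at 4.41 and 4.14 in WBM, and Klf1, an erythroid transcription factor, was at 1.87 and 1.88 in HSC and at 9.16 and 9.28 in WBM. The WT 12 mo A array stood apart from its partner: along the main axis of variation among HSC arrays (the first principal component) it scored 56.4, near the 67.4 and 64.8 of 21 mo, whereas 12 mo B scored -42.9. The signal of the 5′ probe set of 18S ribosomal RNA split the arrays in a similar way, at 10.9 and 10.9 at 2 mo, 11.2 and 8.28 at 6 mo, 4.66 and 9.68 at 12 mo, and 4.84 and 5.44 at 21 mo, with 5.71 and 7.18 in p53+/m HSC, 8.92 and 7.96 in p53+/- HSC, and 5.32 and 5.14 in WBM. Results are given below without these arrays where they rest on them.

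HSC of 2 mo were first set against WBM of the same age, which asks how the complexes in the stem cell differ from those in the mixed cells of the marrow. The PRC2 genes Ezh2 and Suz12 were lower in HSC, 6.76-fold and 3.72-fold, and the PRC1 gene Bmi1 was higher, 2.40-fold. Thus 2 of the 4 PRC2 genes were lower and none higher, and 1 of the 5 PRC1 genes was higher and none lower. A gene passed when the adjusted p of limma, corrected by Benjamini-Hochberg over all probe sets, was under 0.05 and the difference was at least 2-fold. Of all genes, 10.5% passed as lower and 13.3% as higher, or 23.8% in either direction, so that 3 of 9 is near the background. At an unadjusted p under 0.05 there were 5 of the 9, against 36.1% of all genes. In a mixed tissue such as WBM, fewer cells of a type and less RNA per cell cannot be told apart.

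Ezh2, the main methyltransferase of dividing cells, had log2 values of 8.44 and 8.06 in HSC of 2 mo, against 11.09 and 10.92 in WBM. Both HSC arrays lay far below both WBM arrays. The difference was -2.76 (SE 0.36, 95% interval -3.63 to -1.88, limma adjusted p = 0.0029). All 12 HSC arrays, of every age and genotype, were between 7.33 and 8.93 for Ezh2, so none overlapped WBM.

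Suz12, the zinc finger subunit, was read at 8.87 and 9.06 in HSC of 2 mo, against 10.75 and 10.97 in WBM, on its brightest probe set (1420021_s_at). The groups did not overlap, and the difference was -1.90 (SE 0.19, limma adjusted p = 0.0011). Of its other probe sets, 1427253_s_at, 1452364_at and 1420022_s_at passed as lower too. In HSC of 2 mo all 3 lay below the readable limit, at 2.50 to 4.34, so they passed through their WBM levels and add no size to the difference. Over single probe sets 9.69% passed as lower. The probe set 1449661_at differed by -1.29 (limma adjusted p = 0.058), and 1420020_at lay near 1.6 on every array. The suffix _s marks probes that may also match other transcripts, so the brightest probe set could hold signal of a related sequence.

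Eed, which binds the methylated histone tail, had 9.77 and 9.54 in HSC and 10.52 and 10.41 in WBM. Its groups did not overlap, but the difference of -0.81 (95% interval -1.11 to -0.50, limma adjusted p = 0.0058) was less than 2-fold. Ezh1, the methyltransferase known from resting cells, had 7.03 and 6.97 in HSC and 7.49 and 7.38 in WBM. That is a difference of -0.43 with a 95% interval of -1.15 to 0.29 (limma adjusted p = 0.44), the smallest of the 4 PRC2 genes.

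On the side of PRC1, Bmi1 (1417493_at) had 10.66 and 10.53 in HSC of 2 mo, against 9.50 and 9.17 in WBM. Both HSC arrays were above both WBM arrays, by 1.26 (SE 0.23, limma adjusted p = 0.011). Its second probe set, 1448733_at, had 10.22 and 9.54 against 8.92 and 8.81, and the difference of 1.01 missed the threshold (limma adjusted p = 0.083). The call on Bmi1 was lost without HSC 2 mo A (limma adjusted p = 0.063) and without WBM B (limma adjusted p = 0.065).

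Rnf2, also called Ring1B, the ubiquitin ligase of the complex, had 10.08 and 10.26 in HSC of 2 mo and 9.63 and 9.45 in WBM on 1424873_at. The groups did not overlap, and the difference was 0.63 (95% interval 0.03 to 1.23, limma adjusted p = 0.14). On its second probe set, 1451519_at, HSC had 8.03 and 8.39 against 7.13 and 6.88 in WBM, and that difference of 1.20 passed (SE 0.26, limma adjusted p = 0.021). Over single probe sets 11% passed as higher. The call was lost without HSC 2 mo B, without WBM A and without WBM B (limma adjusted p from 0.066 to 0.11).

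**Figure D1:**
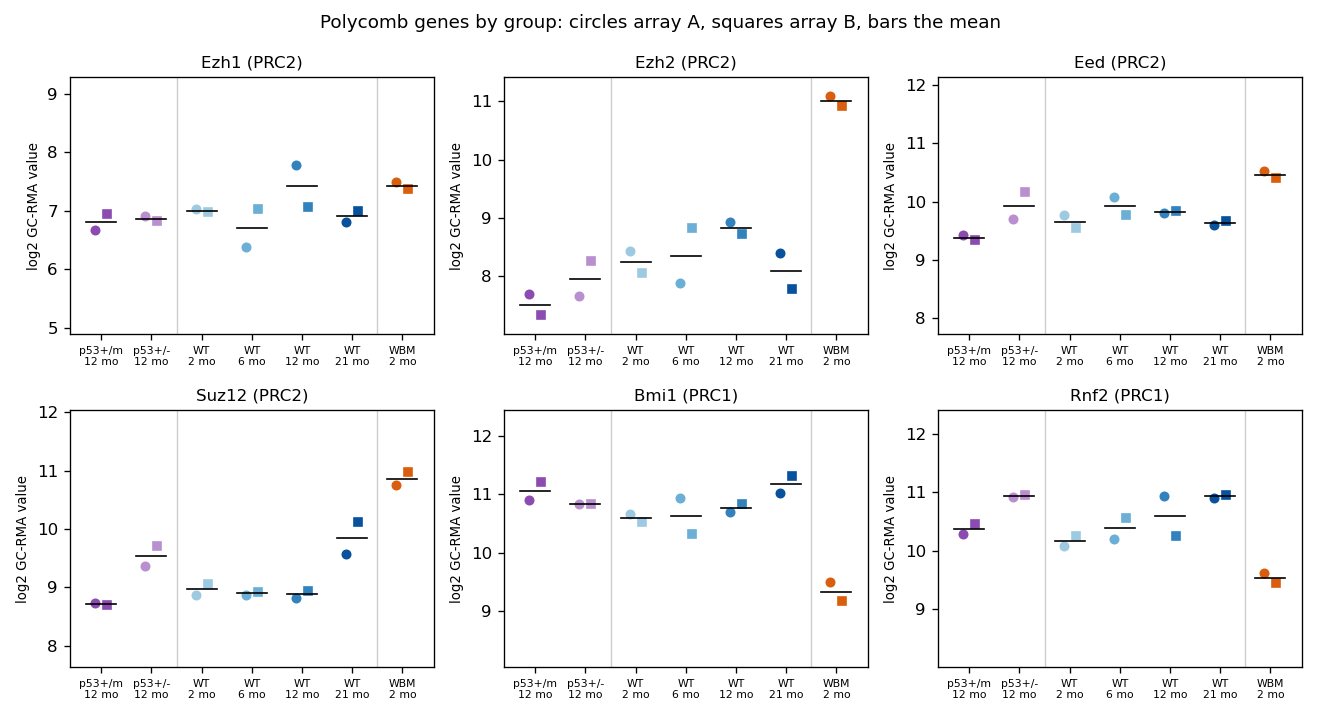
Log2 GC-RMA value (vertical axes, each panel spanning the same number of log2 units) of the 6 readable Polycomb genes on each array of the 7 groups (horizontal axes), with circles for array A, squares for array B and bars for the mean. Ezh2 and Suz12 lie highest in WBM, Bmi1 and Rnf2 lie lowest there, and Suz12 at 21 mo (9.57 and 10.13) is above the other WT HSC arrays.

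The 2 mo HSC carry the high 18S signal described above and the 21 mo HSC do not, so the HSC of 21 mo (18S at 4.84 and 5.44) were also set against the same WBM arrays (5.32 and 5.14), a comparison chosen after the values were seen. The WBM was of 2 mo, so age differs here as well as cell type, and their parts cannot be told apart. Ezh2 differed by -2.91 (limma adjusted p = 0.0028), Suz12 by -1.01 (adjusted p = 0.015), Bmi1 by 1.83 (adjusted p = 0.0032) and Rnf2 by 1.39 (adjusted p = 0.011), and all 4 passed. Of all genes 8.36% then passed as lower and 9.76% as higher. Eed (-0.83) stayed under 2-fold, and Ezh1 (-0.53, limma adjusted p = 0.32) missed the threshold.

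The cells of WBM also carried other marks of division and lineage, and their part in the values of the Polycomb genes was not tested. Of 16 proliferation genes, 12 were lower in HSC of 2 mo, where 10.5% of all genes were lower. Birc5 was among them, at 4.66 and 4.67 in HSC and 10.98 and 10.98 in WBM. The median of the 16 was -2.89 (the median of all genes was -0.01). The log2 of their summed level was 14.2 and 14.2 in HSC and 16.3 and 16.3 in WBM. All 6 erythroid and all 7 neutrophil markers were lower in HSC too, and 4 of 6 B lineage and 4 of 5 monocyte markers, with Cd14 the monocyte marker that was higher.

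The wider Polycomb group was read on a list of 8 accessory PRC2 genes and 13 other PRC1 genes. Among all genes 13.3% were higher in HSC of 2 mo than in WBM and 10.5% lower. Of the accessory PRC2 genes 2 were higher in HSC of 2 mo and none lower: Mtf2, a Polycomb-like protein that brings PRC2 to CpG islands, at 10.95 and 10.81 in HSC and 9.64 and 9.69 in WBM (difference 1.22), and Aebp2, a cofactor of PRC2, at 11.41 and 11.54 in HSC and 10.37 and 10.30 in WBM (difference 1.14). These cofactors and the core subunits Ezh2 and Suz12 thus differed in opposite directions. Aebp2 lost its call without HSC 2 mo B, without WBM B and with the mean of its probe sets.

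Of the other PRC1 genes 4 were higher and none lower. Phc1 and Phc2, the polyhomeotic proteins that let PRC1 units polymerize, were among them. Phc1 had 10.64 and 11.17 in HSC and 7.78 and 7.86 in WBM (difference 3.08), and Phc2 had 8.82 and 8.59 in HSC and, below the readable limit, 4.22 and 4.42 in WBM. Cbx6, a chromobox protein, had 11.32 and 11.68 in HSC and 8.84 and 8.93 in WBM (difference 2.62). Pcgf6, a relative of Bmi1 in variant PRC1, had 7.43 and 7.61 in HSC and 6.47 and 6.12 in WBM (difference 1.23). Phc2 and Pcgf6 lost their calls with HSC of 21 mo in place of 2 mo, and Pcgf6 also with the mean of its probe sets. With the members, 5 of the 18 measured PRC1 genes were higher and none was lower, against the 13.3% and 10.5% of all genes given above.

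**Figure D2:**
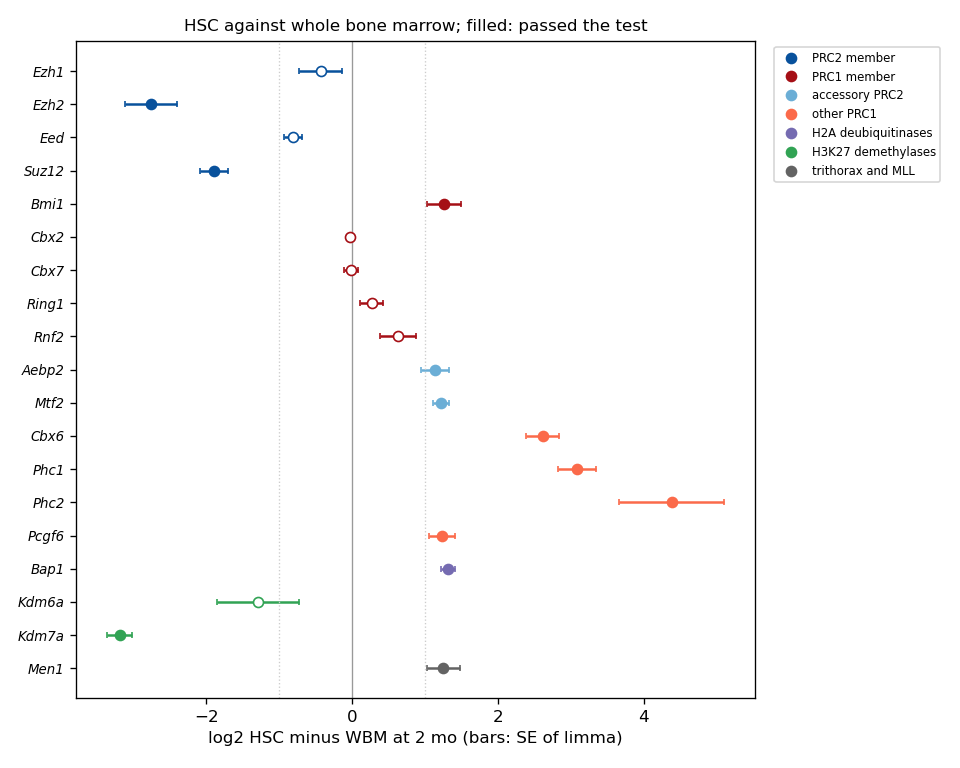
Log2 difference of HSC minus WBM at 2 mo (horizontal axis) with the SE of limma as bars, for the 9 Polycomb genes and for those genes of the wider lists that passed the test, plus Kdm6a, with filled points for genes that passed. The 4 PRC2 members lie left of 0, and Bmi1 and the 4 other PRC1 genes lie to the right. Values below log2 5 in WBM (Phc2), in HSC (Kdm7a) or in WBM and 1 HSC array (Men1) make those sizes inexact, and Cbx2, Cbx7 and Ring1 were below it in both.

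Enzymes that work against Polycomb were few on the lists. Bap1, which removes ubiquitin from histone H2A, was at 10.15 and 10.14 in HSC against 8.76 and 8.90 in WBM (difference 1.32). It was the 1 higher gene on a list of 5 H2A deubiquitinases and partner genes, where 13.3% of all genes were higher. That call was lost with HSC of 21 mo. Kdm6a, the demethylase also known as Utx, had 7.46 and 7.41 in HSC and 8.62 and 8.84 in WBM (difference -1.29, limma adjusted p = 0.19). Kdm7a, another demethylase, was lower in HSC, with 3.06 and 3.21, below the readable limit, against 6.11 and 6.53 in WBM. Of 8 trithorax and MLL genes, whose products oppose Polycomb silencing, only Men1 passed, at 4.99 and 5.49 in HSC and 3.92 and 4.06 in WBM, with all but 1 of these values below the readable limit, and its call was lost without WBM A, with the mean of its probe sets and with HSC of 21 mo.

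Among the targets, 6 of 31 Hox genes were higher in HSC and none was lower, where 13.3% of all genes were higher and 10.5% lower. Hoxa9, a regulator of HSC, had 13.72 and 13.51 in HSC, against 8.05 and 7.92 in WBM (difference 5.64). Hoxa5 had 10.12 and 10.18 in HSC and 5.92 and 5.95 in WBM (difference 4.22), and Hoxb4 passed as well. Hoxb5 (8.09 and 8.81 in HSC, 3.12 and 3.06 in WBM), Hoxa7 (6.65 and 7.21 in HSC, 2.57 and 1.56 in WBM) and Hoxa10 also passed, with WBM below the readable limit, so that the sizes of these differences have no order. Hoxa7 lost its call without HSC 2 mo B, without WBM B and with HSC of 21 mo in place of 2 mo. Only 8 of the 31 Hox genes reached log2 5 on 2 arrays, and the median difference of all 31 was 0.0037. The Ink4 genes gave no readable signal: Cdkn2a lay between 2.05 and 2.11 on all arrays, and Cdkn2b between 3.32 and 4.83.

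Age was tested next, which asks whether the Polycomb genes shift as HSC age. With a quadratic trend over the 8 WT HSC arrays of 2, 6, 12 and 21 mo and the 21 mo minus 2 mo difference of that trend, limma called none of the 9 genes, and 3 (Suz12, Bmi1 and Rnf2) had an unadjusted p under 0.05. Of all genes 3.48% were called, 1.45% as rising and 2.03% as falling, and 23.3% had an unadjusted p under 0.05. Between neighbouring ages, too, limma called none of the 9, where it called 1 gene of all for 6 against 2 mo (0.00807%), 1 for 12 against 6 mo (0.00807%) and 0 for 21 against 12 mo (0%). At an unadjusted p under 0.05 these steps had 0, 0 and 1 of the 9 genes, against 4.61%, 8.37% and 8.51% of all.

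Suz12 had log2 values of 8.87 and 9.06 at 2 mo, 8.87 and 8.92 at 6 mo, 8.82 and 8.94 at 12 mo, and 9.57 and 10.13 at 21 mo. The 6 arrays of the first 3 ages lay between 8.82 and 9.06, and both 21 mo arrays stood above all of them. The trend gave 0.84 (SE 0.18, 95% interval 0.41 to 1.27, limma adjusted p = 0.062), and the 21 mo minus 12 mo step gave 0.97 (unadjusted p = 0.0049, limma adjusted p = 0.28). With 1 array left out the trend gave 0.57 to 1.10, the highest without HSC 21 mo A. It stayed uncalled in 16 of 17 alternatives and passed only in that one.

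Of the weaker probe sets of Suz12, 2 also had both 21 mo arrays above the younger ones. On 1427253_s_at the values were 2.50 and 3.27 at 2 mo, 3.62 and 3.70 at 6 mo, 3.69 and 3.68 at 12 mo, and 4.999 and 5.87 at 21 mo, so that among WT HSC only 21 mo B reached the readable limit. This probe set rose by the test (2.33, SE 0.41, limma adjusted p = 0.046), where 1.32% of all probe sets did, and with its 2 mo values below the limit the size is not exact. The call was lost without either 2 mo array, either 6 mo array or either 21 mo array (1.88 to 2.70, limma adjusted p from 0.076 to 0.17), with quantile normalization (adjusted p = 0.057), with a replicate block (adjusted p = 0.063) and with group means (adjusted p = 0.055). On 1452364_at the values were 4.15 and 4.34 at 2 mo and 5.38 and 6.27 at 21 mo (1.42, limma adjusted p = 0.073), whereas 1449661_at had 5.65 and 4.69 at 2 mo and 4.28 and 5.01 at 21 mo (-0.53, 95% interval -1.36 to 0.29).

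**Figure D3:**
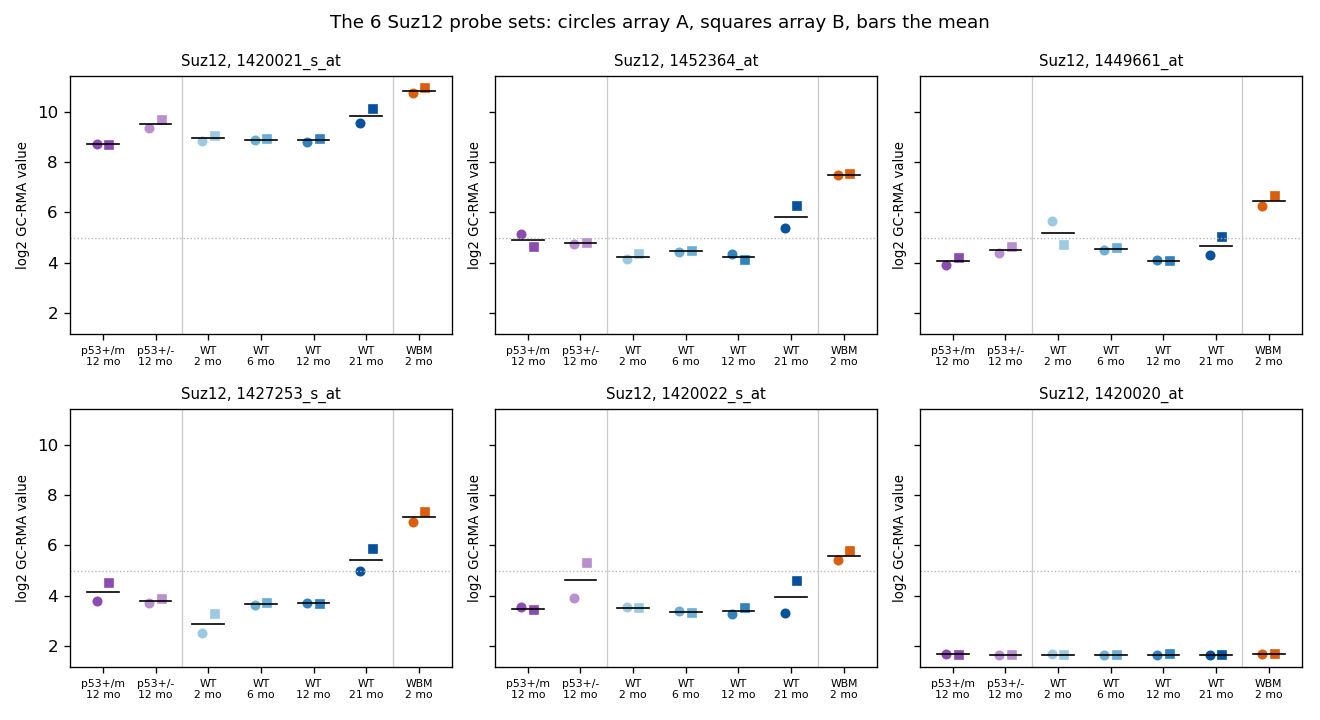
Log2 GC-RMA value (vertical axis) of the 6 Suz12 probe sets on each array of the 7 groups, with circles for array A, squares for array B, bars for the mean and a dotted line at the readable limit of 5. On 3 probe sets (1420021_s_at, 1452364_at and 1427253_s_at) both 21 mo arrays lie above the younger WT HSC, below WBM, and 1420020_at lies near 1.6 throughout.

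Suz12 was brightest in WBM, and some markers of mature myeloid cells were higher on the 21 mo arrays. Of 5 monocyte markers 3 rose with age, where 1.45% of all genes rose. Ly86 had 6.30 and 7.13 at 21 mo and 2.50 and 1.70 at 2 mo (10.79 and 10.86 in WBM). Csf1r had 4.89 and 5.40 at 21 mo and 3.28 and 2.37 at 2 mo, and Ccr2 5.42 and 6.95 at 21 mo and 3.86 and 3.75 at 2 mo. The mean log2 of the monocyte list was 6.45 and 7.20 at 21 mo, 4.37 to 5.01 over all younger WT HSC and 8.70 and 8.83 in WBM. The log2 of its sum was 9.70 and 10.1 at 21 mo, 8.45 and 8.91 at 2 mo and 8.45 to 9.71 over all younger WT HSC. At 2 mo Cd14 made up most of that sum, at 8.05 and 8.71, and it was lower in WBM (2.23 and 2.42). Of 7 neutrophil markers 2 passed as rising, Lcn2 (7.10 and 6.18 at 21 mo, 4.21 and 2.90 at 2 mo) and Mmp8. Mmp8 was below the readable limit at both ages (3.65 and 3.21 at 21 mo, 2.19 and 2.19 at 2 mo), so no level could be read for it. The log2 of the neutrophil sum was 10.98 and 9.50 at 21 mo, 5.91 to 9.07 over the younger WT HSC and 16.2 and 16.3 in WBM. Elane stayed at 2.31 and 2.22 at 21 mo. All 6 erythroid markers were below log2 5 on all HSC arrays. B lineage markers went the other way with age. Of 6, 1 fell (Cd79b, 7.60 and 7.91 at 2 mo, 4.89 and 3.80 at 21 mo), where 2.03% of all genes fell. The log2 of their sum was 7.79 and 8.06 at 2 mo, 5.80 and 5.28 at 21 mo, and 11.9 and 11.8 in WBM. The part of these cells in the Suz12 values was not tested, and neither was that of the 18S signal.

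Rnf2 (1424873_at) had 10.08 and 10.26 at 2 mo, 10.19 and 10.57 at 6 mo, 10.94 and 10.25 at 12 mo, and 10.90 and 10.96 at 21 mo. The 21 mo arrays were above both 2 mo arrays but on a level with 12 mo A. The trend gave 0.75 (95% interval 0.19 to 1.31, limma adjusted p = 0.13), and 0.87 (limma adjusted p = 0.11) on 1451519_at, with 9.06 and 9.05 at 21 mo against 8.03 and 8.39 at 2 mo. The 12 mo arrays differed by 0.69 for Rnf2.

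Bmi1 (1417493_at) had 10.66 and 10.53 at 2 mo, 10.94 and 10.32 at 6 mo, 10.69 and 10.84 at 12 mo, and 11.02 and 11.32 at 21 mo. Both 21 mo arrays were the highest of the 8, with 6 mo A next. The trend gave 0.57 (95% interval 0.08 to 1.06, limma adjusted p = 0.17), and 0.44 on 1448733_at (95% interval -0.33 to 1.22).

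The other 3 readable genes had intervals that cover 0. Ezh2 had 8.44 and 8.06 at 2 mo, 7.89 and 8.82 at 6 mo, 8.93 and 8.73 at 12 mo, and 8.41 and 7.78 at 21 mo, with a trend of -0.05 (95% interval -0.93 to 0.83). The arrays of 6 mo alone spanned most of this range, and 2 of 16 proliferation genes (Mki67 and Mcm7) fell with age, where 2.03% of all genes fell. Eed lay between 9.54 and 10.09 on all 8 arrays (-0.08, 95% interval -0.41 to 0.24), the narrowest interval of the 6 genes. Ezh1 had 7.03 and 6.97 at 2 mo, 6.39 and 7.03 at 6 mo, 7.79 and 7.06 at 12 mo, and 6.81 and 7.003 at 21 mo, with a trend of 0.12 (95% interval -0.80 to 1.04).

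Of the 8 accessory PRC2 genes none was called with age, and of the 13 other PRC1 genes Yaf2 alone rose. Among all genes 1.45% rose and 2.03% fell. Yaf2, which joins Rnf2 in variant PRC1, had 11.70 and 11.63 at 21 mo, against 10.20 and 10.75 at 2 mo. The groups did not overlap, and the trend gave 1.27 (SE 0.19, limma adjusted p = 0.033). The call was lost without HSC 2 mo A, either 6 mo array or either 21 mo array (limma adjusted p from 0.061 to 0.13), and with quantile normalization, a replicate block or group means. None of the 5 deubiquitinases and partner genes, 2 demethylases, 8 trithorax and MLL genes, 2 Ink4 genes or 31 Hox genes was called. Kdm6a had 7.38 and 7.34 at 21 mo against 7.46 and 7.41 at 2 mo.

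The 12-mo-old p53 mutants were compared with WT HSC of the same age and with each other, which asks whether p53 dose goes with a different Polycomb profile. In the fit of limma over the 12 HSC arrays none of the 9 genes was called in any of the 3 comparisons. Of all genes 0.444% were called for p53+/m against WT, 0.194% for p53+/- against WT and 0.218% for p53+/m against p53+/-. At an unadjusted p under 0.05 there were 2 (Ezh2 and Eed), 2 (Suz12 and the dim Cbx7) and 3 (Suz12, Eed and Rnf2) of the 9 genes, against 11.5%, 8.71% and 10.1% of all genes. The first 2 comparisons share the WT arrays, one of which is 12 mo A.

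Ezh2 had 7.71 and 7.33 in p53+/m HSC and 7.67 and 8.26 in p53+/- HSC, against 8.93 and 8.73 in WT HSC of 12 mo. All 4 mutant arrays were below both WT arrays, and the mutants overlapped each other. The difference from WT was -1.31 in p53+/m (95% interval -2.20 to -0.42, limma adjusted p = 0.23) and -0.86 in p53+/- (95% interval -1.75 to 0.03, limma adjusted p = 0.63), and p53+/m minus p53+/- was -0.45 (95% interval -1.34 to 0.45). Without WT 12 mo A, p53+/m minus WT was -1.21 (limma adjusted p = 0.25).

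Proliferation genes were also measured beside Ezh2. In p53+/m against WT 1 of 16 was lower (Mcm6, at 9.28 and 8.99 against 11.16 and 10.46), where 0.307% of all genes were lower. A negative difference was found for 12 of 16, and the median was -0.64, where the median of all genes was -0.01. The log2 of their sum was 13.96 and 13.74 in p53+/m, 13.72 and 14.14 in p53+/-, and 13.81 and 13.82 in WT. Their part in the Ezh2 values was not tested.

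Suz12 had 8.74 and 8.70 in p53+/m HSC and 9.36 and 9.71 in p53+/- HSC, against 8.82 and 8.94 in WT HSC. The p53+/- arrays were above both other groups and the p53+/m arrays below them. The difference was -0.16 for p53+/m minus WT (95% interval -0.61 to 0.29), 0.65 for p53+/- minus WT (95% interval 0.20 to 1.10, limma adjusted p = 0.33) and -0.81 for p53+/m minus p53+/- (95% interval -1.26 to -0.36, limma adjusted p = 0.18). The weaker probe sets, mostly under log2 5 in these groups, were mixed. On 1449661_at (4.40 and 4.64 in p53+/-) and 1420022_s_at (3.90 and 5.31 in p53+/-) the p53+/- arrays were also above both other groups, whereas on 1452364_at p53+/m (5.13 and 4.64) and p53+/- (4.73 and 4.80) overlapped. On 1427253_s_at, below log2 5 in these groups, p53+/- (3.69 and 3.88) overlapped both WT (3.69 and 3.68) and p53+/m (3.80 and 4.50). None of the 5 monocyte markers was called for p53+/- against WT, and 2 had a positive and 3 a negative difference. Their mean log2 was 4.79 and 4.71 in p53+/- HSC, against 5.01 and 4.66 in WT HSC. The log2 of their sum was 10.55 and 9.52 in p53+/- HSC, against 9.25 and 8.72 in WT HSC. Most of that sum was Cd14, at 10.48 and 9.35 against 9.07 and 8.42. Their part in the Suz12 values was not tested.

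Eed had 9.42 and 9.34 in p53+/m HSC and 9.70 and 10.17 in p53+/- HSC, against 9.80 and 9.83 in WT HSC. The p53+/m arrays were the lowest of all 14 for this gene. The difference was -0.43 for p53+/m minus WT (95% interval -0.84 to -0.03, limma adjusted p = 0.42), 0.12 for p53+/- minus WT (95% interval -0.29 to 0.52) and -0.55 for p53+/m minus p53+/- (95% interval -0.96 to -0.15, limma adjusted p = 0.31).

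Ezh1 had 6.66 and 6.94 in p53+/m HSC and 6.92 and 6.82 in p53+/- HSC, against 7.79 and 7.06 in WT HSC. The mutants overlapped each other below WT, where 12 mo A was 0.73 above 12 mo B. The difference was -0.62 for p53+/m minus WT (95% interval -1.29 to 0.04) and -0.56 for p53+/- minus WT (95% interval -1.22 to 0.11), and without 12 mo A these were -0.26 and -0.19.

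For PRC1, Bmi1 had 10.90 and 11.21 in p53+/m HSC and 10.84 and 10.84 in p53+/- HSC, against 10.69 and 10.84 in WT HSC. The differences from WT were 0.29 (95% interval -0.22 to 0.79) and 0.08 (95% interval -0.42 to 0.58). Its 2 probe sets disagreed between the mutants: p53+/m minus p53+/- was 0.21 on 1417493_at and -1.04 on 1448733_at, where p53+/m had 9.33 and 9.64 and p53+/- had 10.47 and 10.57 (limma adjusted p = 0.30). Over the 12 HSC arrays the 2 probe sets had a Pearson r of 0.26.

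Rnf2 had 10.29 and 10.46 in p53+/m HSC and 10.92 and 10.95 in p53+/- HSC, against 10.94 and 10.25 in WT HSC. The mutants did not overlap each other, and the WT arrays spanned both. The differences were -0.22 for p53+/m minus WT (95% interval -0.76 to 0.31), 0.34 for p53+/- minus WT (95% interval -0.19 to 0.87) and -0.56 for p53+/m minus p53+/- (95% interval -1.10 to -0.03, limma adjusted p = 0.49). Without WT 12 mo A the first turned to 0.12 and the second was 0.69.

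**Figure D4:**
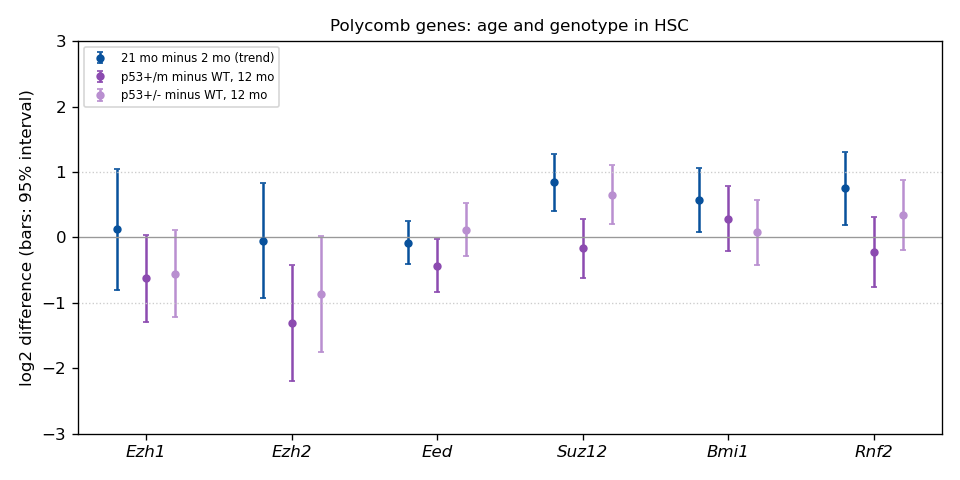
Log2 difference (vertical axis) with its 95% interval for the 6 readable Polycomb genes, for 21 mo minus 2 mo from the age trend, p53+/m minus WT and p53+/- minus WT at 12 mo. Ezh2 in p53+/m (-1.31) and Suz12 at 21 mo (0.84) are among the differences whose interval lies away from 0, and no gene passed the adjusted threshold.

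None of the genes on the wider Polycomb, trithorax, demethylase, Ink4 and Hox lists was called in any of the 3 genotype comparisons. Kdm6a had 8.02 and 7.97 in p53+/m HSC and 6.56 and 6.95 in p53+/- HSC, against 6.02 and 7.90 in WT HSC. The p53+/m arrays were above the p53+/- arrays by 1.24 (limma adjusted p = 0.54).

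The order of the groups differed between readable PRC2 genes and the only readable PRC1 genes, Bmi1 and Rnf2. For Ezh2, Eed and Suz12 the highest mean was that of WBM, apart from all HSC groups without overlap, and for Bmi1 and Rnf2 WBM had the lowest mean. Below WBM, the neighbouring HSC groups of Ezh2 (WT 12, 6, 2 and 21 mo, p53+/-, p53+/m, from high to low) each overlapped the next. For Suz12 the 21 mo and p53+/- HSC overlapped and were separate from the other HSC groups. For Ezh1, WBM and WT HSC of 12 mo overlapped at the top.

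Across the 14 arrays Ezh2 and Bmi1 had a Pearson r of -0.93, and -0.63 over the 12 HSC arrays alone. Ezh2 and Eed had 0.81 and 0.43 in these sets, and Ezh2 and Suz12 had 0.73 and -0.11, so that the joint variation of Ezh2 and Suz12 was weak without WBM. Suz12 and Rnf2 had -0.39 over 14 arrays and 0.69 over the 12 HSC arrays. These points share groups, arrays and 1 normalization, and the values are descriptions.

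The genes whose pattern was most like that of each member were taken by Pearson r over the 14 arrays, among 6787 other readable genes. This r includes the difference between HSC and WBM. Over the 12 HSC arrays alone each r below was lower, from 0.70 (Eed and Hmgb2) to 0.94 (Rnf2 and Slc38a1). For Ezh2 it was then 0.79 with Uhrf1, 0.78 with Brca1 and 0.84 with Foxo3. For Ezh2 these were Uhrf1 (0.97), which maintains DNA methylation at replication, Brca1 (0.97), a DNA repair gene, and Foxo3 (0.96), a transcription factor. For Eed they were Xrcc6 (0.92), Adam10 (0.90) and Hmgb2 (0.89), and for Suz12 Sh3bp5 (0.95), Slc16a1 (0.94) and Cyrib (0.94). For Ezh1 they were Atp2a3, Slc44a2 and Riox1, all at 0.87. For Bmi1 they were Jam2 (0.97), Nbea (0.96) and Tgm2 (0.96), and for Rnf2 Acvr1 (0.97), a receptor of the BMP family, Smad7 (0.96), an inhibitor of TGFβ signaling, and Slc38a1 (0.96).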

How the data were processed

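The authors read the arrays with MAS 5.0 and deposited GC-RMA values on the log2 scale, 1 per probe set, for 22626 probe sets and 64 controls, which were left out. Neither the GCRMA version nor the number of normalization runs is given in the sources used here. Values were used as deposited. Probe sets were named by the annotation table of the array, where 20380 have 1 symbol, 691 several and 1555 none. Each gene takes the probe set that was brightest on average in the 8 WT HSC arrays. Differences were estimated in R 4.3.3 by lmFit and eBayes of limma 3.58.1, with p-values adjusted by Benjamini-Hochberg over all probe sets: a quadratic age trend over 8 WT HSC arrays, group means over 10 WT arrays for HSC against WBM, and group means over 12 HSC arrays for genotypes. The procedure was tested on simulated data. The 2 arrays per group limit the precision.

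The members and lists were chosen with earlier results of these data known. The genes named are all members, Cdkn2a, Cdkn2b and Kdm6a, the 3 genes most like each member, and genes of the wider lists that passed. These last were up to 4 per direction of each list, except that all 6 Hox genes higher in HSC than in WBM are named. Markers of cell type and proliferation are named as examples. Genes of the wider lists with no probe set of a single symbol, such as Kdm6b and Rybp, were not analysed here. The alternatives left out each array, and changed the normalization, the threshold, the filter on dim probe sets, the summary of a gene's probe sets, the form of the age trend, the arrays in the fit and a block on the letters A and B.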

Additional observations from a re-analysis of the deposited data

How the results depend on the processing

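Ezh2 and Suz12 were lower in HSC than in WBM in all 18 alternatives of that comparison, and Bmi1 passed in 16 of 18, with a difference of 1.10 to 1.83 over all 18. The count of members higher in HSC was 0 to 1 with 1 array left out, 0 without HSC 2 mo A or WBM B, and 2 with HSC of 21 mo, an alternative chosen after seeing the data. Without HSC 21 mo A, 1 member was called with age, and the count was 0 to 1 over all arrays left out. No member was called in any alternative of the genotype comparisons or of the age steps. Arrays that share a letter were not treated as paired, and the sample titles do not say whether they were processed together. Over 21 pairs of groups the correlation of the A minus B deviations lay between -0.31 and 0.16, which cannot settle that. With the letters as a replicate block the members called were 3 for HSC against WBM and 0 with age, and over all genes the calls were 2774 against 2948 for WBM, 186 against 431 for age, 35 against 55 for p53+/m minus WT, 11 against 24 for p53+/- minus WT and 9 against 27 for p53+/m minus p53+/-.

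Signs turned only among differences that were not called, and the cause was not tested. With arrays left out, the age difference of Ezh1 was -0.032 to 0.26 and that of Ezh2 -0.32 to 0.27. The age difference of Ezh1 was -0.11 with the mean of its probe sets, -0.094 with group means and -0.094 without both 12 mo arrays. For p53+/m minus WT, leaving out arrays gave -0.57 to 0.12 for Rnf2, and the mean of the probe sets gave 0.17 for Suz12 and -0.13 for Bmi1. For p53+/- minus WT, leaving out arrays gave -0.12 to 0.35 for Eed, -0.00018 to 0.15 for Bmi1 and -0.0053 to 0.69 for Rnf2. For p53+/m minus p53+/-, leaving out arrays gave -0.20 to 0.073 for Ezh1, and the mean of the probe sets gave 0.032 for Ezh1 and -0.41 for Bmi1. Levels under log2 5 cannot be ordered, which covers Cbx2, Cbx7 and Ring1 in all groups.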
